A study of Mus musculus with 2 samples.

Results

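The mitochondrial carriers of the SLC25 family were examined in total RNA of whole heart. A member was a gene with at least 1 protein-coding transcript in the deposited annotation and a name made of Slc25a and a number, and Ucp2 and Ucp3 were added. This rule found 49 genes among the 55536 mouse genes of the tables, and it used no measured value. Ucp1 is outside the rule and is used here only as a marker of brown adipocytes. The 2 libraries came from B6CASTF1/J females at 36 days of age, hybrids that carry 1 genome of C57BL/6J and 1 of CAST/EiJ, with 300 ng of RNA in each. They form 1 group, called replicate 2 (animal 4) and replicate 1 (animal 3) in the labels, so the data hold levels and a comparison of 2 libraries and no contrast between conditions. In sum, 38332175 expected counts (estimated reads, spike-ins included) were assigned to genes in replicate 2 and 39053337 in replicate 1.

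The SLC25 proteins sit in the inner membrane of mitochondria, where each moves a particular group of small molecules between the cytosol and the matrix. They exchange ATP for ADP, bring in phosphate, pass electrons from cytosolic NADH inward as part of the malate-aspartate shuttle, admit acylcarnitines for fatty acid oxidation, and carry iron, nucleotides, cofactors and amino acids. The uncoupling proteins are relatives that can let protons return to the matrix. Heart muscle is rich in mitochondria and meets most of its demand for ATP by oxidation, which requires ADP/ATP exchange and phosphate import. A few members work elsewhere, such as Slc25a17 in the peroxisome and Slc25a46 in the outer mitochondrial membrane.

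Slc25a3, the phosphate carrier, has 2 alternative copies of exon 3, of which each protein-coding transcript holds 1. The upstream copy gives the form known as 3A, typical of heart and skeletal muscle, and the downstream copy gives the widespread form 3B. Both copies are shown because the form of Slc25a3 is a result below. The upstream exon has 125 bases (chr10:91122207-91122331, minus strand, mm10) and the downstream exon has 122 bases (chr10:91121922-91122043, minus strand, mm10). The letters are those of the GENCODE M21 transcripts, and capitals mark bases that differ from the aligned partner or have none. In the alignment 80 bases were identical, which is 65.6% of the shorter exon.
Upstream exon: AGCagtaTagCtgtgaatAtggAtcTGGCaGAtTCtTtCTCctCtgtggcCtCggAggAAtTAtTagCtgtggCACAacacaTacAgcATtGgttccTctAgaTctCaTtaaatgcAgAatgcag
Downstream exon: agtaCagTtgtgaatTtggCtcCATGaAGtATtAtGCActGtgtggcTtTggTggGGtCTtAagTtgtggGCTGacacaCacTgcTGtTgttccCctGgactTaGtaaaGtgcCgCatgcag

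The promoters of Slc25a4 and Slc25a5, the main and the lesser ADP/ATP carrier of these hearts, are shown because these relatives stand far apart in level. The RefSeq promoter table (build GRCm38.p6) gives 250 bases before and 50 bases after each gene's start, and capitals mark the letters TATAA on the coding strand. The Slc25a4 promoter lies at chr8:46211013-46211312 on the minus strand and the Slc25a5 promoter at chrX:36795347-36795646 on the plus strand. In Slc25a5 the letters begin 28 bases before the M21 start of Slc25a5-201. In Slc25a4 they begin 227 bases after the M21 start of Slc25a4-201. The RefSeq and M21 starts differ for both genes. Most of the Slc25a4 window shown here lies inside the M21 gene (46206797 to 46211284). The Slc25a5 window ends before the M21 start at 36795651. In both windows the letters lie in the 50 bases after the RefSeq start, so before and after apply to the M21 starts alone.
Slc25a4 promoter: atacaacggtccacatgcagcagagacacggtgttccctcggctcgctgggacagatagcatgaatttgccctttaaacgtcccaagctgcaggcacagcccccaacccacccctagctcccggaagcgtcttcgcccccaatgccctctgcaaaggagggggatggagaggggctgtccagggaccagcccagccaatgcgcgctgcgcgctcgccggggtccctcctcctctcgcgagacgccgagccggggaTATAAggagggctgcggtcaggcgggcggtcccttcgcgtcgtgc
Slc25a5 promoter: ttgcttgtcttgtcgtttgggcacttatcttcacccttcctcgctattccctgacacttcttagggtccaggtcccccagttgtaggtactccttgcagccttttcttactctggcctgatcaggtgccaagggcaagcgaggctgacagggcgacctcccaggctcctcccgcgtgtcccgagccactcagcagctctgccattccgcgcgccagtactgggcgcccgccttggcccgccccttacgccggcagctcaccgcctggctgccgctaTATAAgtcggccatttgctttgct
The table held promoters for 38 members. TATAA anywhere on the coding strand of the 300 bases was found in 3 of the 38 (7.89%; Slc25a4, Slc25a5 and Slc25a21), against 20.03% of the 27025 genes in the table. The letters GCGCATGC, a form of the motif of NRF1, were searched on both strands and were found in 2 of 38 members (5.26%; Slc25a31 and Slc25a54), against 3.05% of all genes. TCAAGGTCA, a form of the motif of the oestrogen-related receptors, was found in 0 of 38 on either strand, against 0.466% of all genes. None of the 3 motifs contains another, and a match is a description of the letters alone.

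The carriers ran from Slc25a4 at 1911 ± 104 TPM (mean ± SD, n = 2, as for all levels below) to 2 members with no reads. TPM is a measure of transcript abundance per length, scaled to the same sum in each library, so that levels of different genes can be compared. Of the 49 members, 40 (81.6%) reached 1 TPM in both libraries, against 139 of 322 other Slc genes (43.2%) and 50.4% of the 21888 nuclear protein-coding genes. The median level of the members was 6.94 TPM, against 0.653 TPM for the other Slc genes and 1.21 TPM for nuclear protein-coding genes. At least 100 TPM was reached by 10.2% of the members, 0.621% of the other Slc genes and 2.499% of nuclear protein-coding genes. The member sum was 3901 TPM in replicate 2 and 4220 TPM in replicate 1, or 1.04 ± 0.0250% of nuclear protein-coding TPM. It came to 204% of the sum of the 322 other Slc genes, which were taken by name alone. Slc25a4 alone held 47.1 ± 0.0555% of the member sum, the highest 2 members 70.0%, the highest 5 members 82.9% and the highest 10 members 91.8%.

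**Figure D1:**
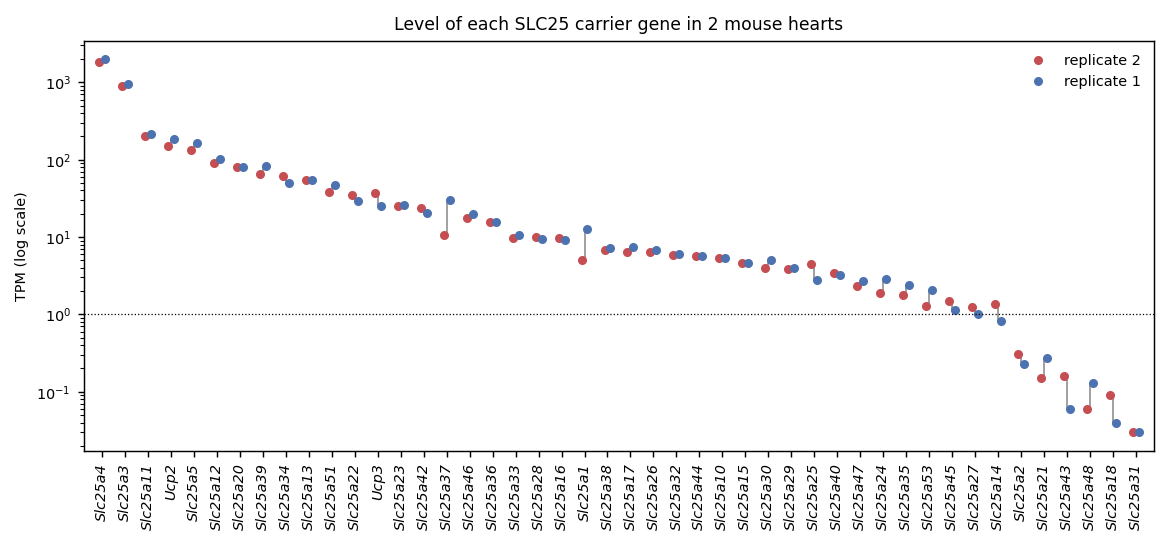
TPM (log axis) of 46 carrier genes with reads, ordered by mean, in replicate 2 (red) and replicate 1 (blue) of mouse heart; grey lines join the libraries and the dotted line is 1 TPM. Slc25a4 and Slc25a3 stand clear of all others, and Slc25a37 and Slc25a1 have the widest gaps between libraries among members above 5 TPM in mean.

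Slc25a4 and Slc25a3, which serve ATP synthesis, were the highest members. Slc25a4, the ADP/ATP carrier of heart and skeletal muscle (ENSMUSG00000031633.4, mm10 chromosome 8, 46206797 to 46211284), had 1837 TPM in replicate 2 and 1984 TPM in replicate 1 and ranked 17 among nuclear protein-coding genes. Slc25a3 (ENSMUSG00000061904.12, chromosome 10, 91116574 to 91124059) had 902 TPM in replicate 2 and 963 TPM in replicate 1 and ranked 41. Both values of Slc25a4 lay above both of Slc25a3, and those of Slc25a3 lay above every other member. Slc25a5, the ADP/ATP carrier of dividing and many other cells (chromosome X, 36795651 to 36798807), had 135 TPM in replicate 2 and 165 TPM in replicate 1. Slc25a31, the ADP/ATP carrier of male germ cells, stood at 0.0300 TPM from 2 counts in each library. In a whole organ, fewer cells of a type and less RNA per cell cannot be told apart, so these levels are those of the mixture. Genes that work with ADP/ATP exchange covered a wide range. Atp5b, a catalytic subunit of ATP synthase, had 3375 ± 173 TPM, and Ckmt2, the mitochondrial creatine kinase of striated muscle, had 916 ± 86.3 TPM. Ckmt1, its form in other tissues, was at 0.620 ± 0.127 TPM, and Ppif, the cyclophilin that regulates the permeability transition pore, was at 111 ± 0.375 TPM.

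In the malate-aspartate shuttle, Slc25a11, which exchanges oxoglutarate for malate (ENSMUSG00000014606.14, chromosome 11, 70644196 to 70647479), had 205 TPM in replicate 2 and 213 TPM in replicate 1. Slc25a12, the calcium-sensitive aspartate/glutamate carrier of excitable tissues, had 90.7 TPM in replicate 2 and 101.2 TPM in replicate 1. Slc25a13, its relative with a high level in liver, had 54.98 and 53.87 TPM in the same order. In these gene-level values the libraries did not overlap between Slc25a12 and Slc25a13. Among protein-coding transcripts the order was the reverse. Slc25a12-206, the only one listed for Slc25a12, had 8.85 TPM in replicate 2 and 8.67 TPM in replicate 1. Slc25a13-203 had 50.45 and 50.8 TPM in the same order. The 4 enzymes of the shuttle were all higher than these carriers, with Mdh1, the cytosolic malate dehydrogenase, highest at 919 ± 51.2 TPM and Got2, the mitochondrial aspartate aminotransferase, lowest at 296 ± 5.79 TPM. Slc25a10, the dicarboxylate carrier, had 5.36 ± 0.0707 TPM, and the glutamate carriers Slc25a22 and Slc25a18 had 32.05 ± 3.71 and 0.0650 ± 0.0354 TPM.

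For fatty acid entry, Slc25a20, the carnitine/acylcarnitine carrier, had 79.7 TPM in replicate 2 and 81.0 TPM in replicate 1. Among the carnitine enzymes it lay between Cpt2, the inner-membrane acyltransferase, at 115 ± 5.45 TPM and Cpt1a, the outer-membrane enzyme of liver and many other tissues, at 29.5 ± 6.41 TPM. Cpt1b, the muscle form of that enzyme, was highest of the 4 at 212 ± 6.13 TPM.

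Ucp2, the widespread uncoupling protein (ENSMUSG00000033685.13, chromosome 7, 100493337 to 100502020), had 149 TPM in replicate 2 and 184 TPM in replicate 1. Ucp3, the form of skeletal muscle, heart and brown fat, had 37.3 TPM in replicate 2 and 25.4 TPM in replicate 1. Ucp1, outside the rule and left out of the shares below, had 7.95 and 52.6 TPM in that order, in replicate 1 above Ucp3. The related Slc25a30, Slc25a27 and Slc25a14 stood at 4.52 ± 0.792, 1.12 ± 0.156 and 1.10 ± 0.389 TPM.

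Carriers of iron, glutathione and cofactors lay in the middle of the range. Slc25a39, a glutathione carrier, had 66.0 TPM in replicate 2 and 81.9 TPM in replicate 1, and its relative Slc25a40 had 3.33 ± 0.170 TPM. Slc25a51, the NAD carrier, had 43.0 ± 6.42 TPM. The mitoferrins Slc25a37, which supplies iron to developing red cells, and Slc25a28, which serves other tissues, had 20.4 ± 13.7 and 9.77 ± 0.431 TPM. Slc25a42, a coenzyme A carrier, had 22.2 ± 2.62 TPM and Slc25a16, its relative, 9.49 ± 0.318 TPM. Slc25a38, the glycine carrier needed for haem synthesis, Slc25a26, the S-adenosylmethionine carrier, Slc25a32, a carrier of flavin and folate, and Slc25a44, a carrier of branched-chain amino acids, lay between 5.63 and 7.03 TPM. Slc25a34, whose substrate is not settled, was high for that group at 61.2 TPM in replicate 2 and 50.6 TPM in replicate 1. The other members without a settled substrate, Slc25a35, Slc25a43, Slc25a45, Slc25a47, Slc25a48, Slc25a53 and Slc25a54, lay at or below the 2.54 ± 0.269 TPM of Slc25a47.

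By level, 1 member stood above 1000 TPM, 4 between 100 and 1000, 15 between 10 and 100, 21 between 1 and 10, and 8 under 1. The 8 were Slc25a2, Slc25a21, Slc25a43, Slc25a48, Slc25a18, Slc25a31, Slc25a41 and Slc25a54. Slc25a41 and Slc25a54 had 0 counts in both libraries, which allows up to 0.0786 CPM (counts relative to the mouse total of the library) in replicate 2 and 0.0772 CPM in replicate 1, from 3 counts. Among the 20 members of at least 10 TPM, 12 of the 19 neighbouring pairs in the order of levels did not overlap between libraries. The other 7 pairs overlapped, so these values do not set their order. Among them were Ucp2 with Slc25a5, Slc25a20 with Slc25a39, and Slc25a34 with Slc25a13. Overlap was counted in the first quantification alone, and the second can differ. There Slc25a51 (36.1 TPM in replicate 2 and 41.2 in replicate 1) overlapped Slc25a22 (39.4 and 32.7). Slc25a39 (106 and 133 TPM) lay above Slc25a20 (91.9 and 93.9) there. Ucp2 (229 and 286 TPM) lay above Slc25a5 (147 and 176) there as well, and Slc25a11 had 316 and 302 TPM.

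The related members were grouped by known substrate into 12 subfamilies of 2 or more, with 29 members in all. In all 12 the same member led in both libraries and held over 50% of the summed TPM of its subfamily, also in the second quantification and in expected counts. For the 8 subfamilies of 2 members any leader holds over 50% of a library's sum, so there the result is that the same gene led both libraries. In 4 subfamilies the leader held over 90%. Slc25a22 held 99.8 ± 0.0871% of the glutamate carriers, Slc25a11 97.5 ± 0.0926% against Slc25a10, Slc25a39 95.6 ± 0.846% of the glutathione carriers and Slc25a4 92.7 ± 0.592% of the ADP/ATP carriers. Ucp2 held 83.9 ± 5.53% against Ucp3, and Slc25a23 held 80.8 ± 1.54% of the ATP-Mg/phosphate carriers, which shift adenine nucleotides between matrix and cytosol. The others were more even. Slc25a42 held 69.97 ± 1.78% of the coenzyme A pair, Slc25a12 63.8 ± 2.12% of the aspartate/glutamate pair and Slc25a36 60.7 ± 1.27% of the pyrimidine nucleotide pair. These shares count all transcripts of a gene. For Slc25a12 most of the TPM lay in transcripts not annotated as protein-coding, and its coding transcript was below that of Slc25a13. The lowest leading share was that of Slc25a15, the ornithine carrier, at 52.8 ± 0.131%, with Slc25a29, a carrier of basic amino acids, at 44.2 ± 0.782%. The widest spread was in the mitoferrins, where Slc25a37 held 51.6% in replicate 2 and 76.1% in replicate 1.

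**Figure D2:**
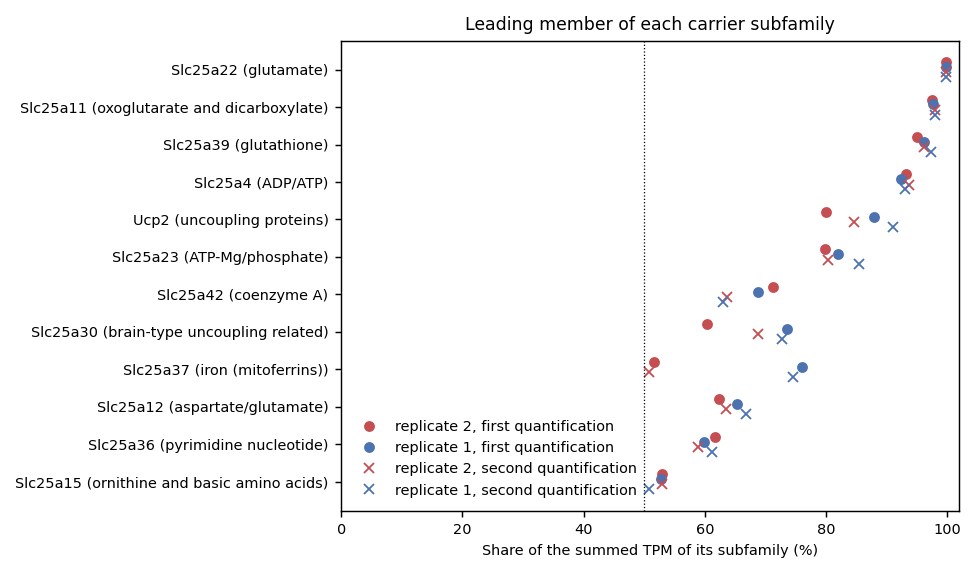
Share of the summed TPM of its subfamily (%, linear axis) held by the leading carrier gene of each of 12 subfamilies; circles are the first and crosses the second quantification, red is replicate 2 and blue replicate 1, and the dotted line is 50%. All points lie above 50%, and Slc25a37 has the widest gap between libraries (51.6% in replicate 2 and 76.1% in replicate 1).

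The transcripts of Slc25a3 carried mainly the upstream exon 3, the muscle and heart form. Slc25a3-206, the only protein-coding transcript with that exon, had 829 TPM in replicate 2 and 879 TPM in replicate 1. Slc25a3-201 and Slc25a3-203, which hold the downstream exon, had together 65.4 TPM in replicate 2 and 77.8 TPM in replicate 1. The upstream exon thus made 92.3 ± 0.579% of the coding TPM in the first quantification, made from alignments to the transcriptome. The second quantification, built directly from the reads with an index of transcripts, gave 80.5 ± 0.419%, and Slc25a3-203 held 169.8 TPM in replicate 2 and 168 TPM in replicate 1 there, against 3.81 and 5.75 TPM in the first. The upstream form led in both libraries of both quantifications, and the 2 quantifications differed in its share by more than the spread between libraries. Reads over the exon itself were not analysed here, since the tables used give values per transcript.

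**Figure D3:**
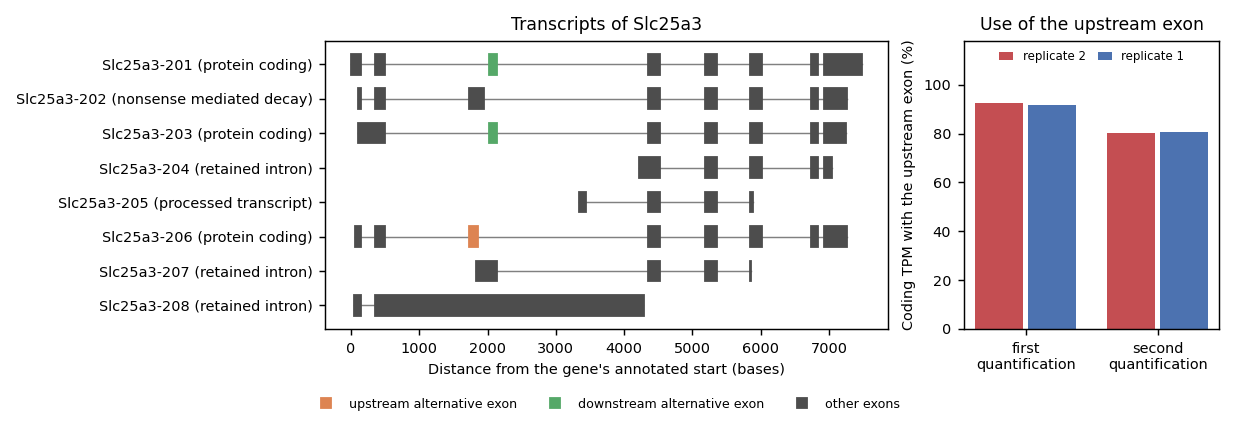
Left, exons of the 8 annotated Slc25a3 transcripts by distance from the gene's annotated start (bases), with the upstream alternative exon in orange and the downstream one in green; right, the share (%) of coding TPM in the transcript with the upstream exon, replicate 2 in red and replicate 1 in blue. The share is 92.7% (replicate 2) and 91.9% (replicate 1) by the first quantification, and by the second it is 80.2% and 80.8% in that order.

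The annotation lists 271 transcripts for the 49 members. Of the 41 members with a mean of at least 1 TPM, 35 had the same leading transcript in both quantifications, 2 of them with only 1 transcript. In 28 of the 35 this transcript held over 50% of the gene's TPM in both quantifications, and in 8 over 90%. Leaders and shares here are by the mean over the libraries, and a single library can differ. In replicate 2 of the second quantification Slc25a1-204, annotated as a retained intron, held 39.9% of Slc25a1 against 36.3% for Slc25a1-201. Slc25a4-201 held 94.9 ± 1.09% of Slc25a4 and Slc25a5-201 held 99.4 ± 0.389% of Slc25a5. In 3 members the protein-coding transcripts held under 50% of TPM in both quantifications, and these were Slc25a12, Slc25a47 and Slc25a53. In Slc25a12 the leading transcript was Slc25a12-207, annotated as a target of nonsense-mediated decay, a pathway that degrades messages with an early stop codon. It had 64.5 TPM in replicate 2 and 70.3 TPM in replicate 1, or 70.3 ± 1.17% of the gene in the first quantification and 59.3 ± 3.31% in the second. Slc25a12-206, the only protein-coding transcript listed, had 8.85 TPM in replicate 2 and 8.67 TPM in replicate 1. Slc25a12-207 has 17 exons and lacks exon 4 of Slc25a12-206, of 116 bases, and its last exon has 664 bases against 4291 bases in Slc25a12-206, which has 18 exons. How far the skipped exon and how far the length of the last exon set this division was not tested, and the gene-level value is given above.

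Among 5 pairs of members lying within 50 kb of each other, no protein-coding gene lay between the 2 members. Slc25a43 and Slc25a5, 18448 bases apart on the plus strand of chromosome X, had 0.110 ± 0.0707 and 149.9 ± 21.3 TPM. Slc25a41 and Slc25a23, 2056 bases apart on chromosome 17, had 0 and 25.5 ± 0.474 TPM. Slc25a54 and Slc25a24, 6461 bases apart on chromosome 3, had 0 and 2.41 ± 0.700 TPM. Ucp3 and Ucp2, 6904 bases apart on chromosome 7, had 31.4 ± 8.37 and 166 ± 24.4 TPM. Slc25a29 and Slc25a47, on opposite strands of chromosome 12 with 162 bases between them, had 3.91 ± 0.0849 and 2.54 ± 0.269 TPM.

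Shared sequence limits a few of these levels. Of the 49 members, 43 shared under 5% of their 31-base words with transcripts of any other gene, and 24 shared none. The highest share was that of Slc25a5 at 49.4%, of which 499 words were shared with Gm5560, a gene at 0.0950 TPM, so its level is uncertain to the extent that reads were divided. It was 149.9 ± 21.3 TPM in the first and 161 ± 20.8 TPM in the second quantification. Slc25a37 shared 7.72%, chiefly with Gm16867 at 1.22 TPM. Whether reads were counted by strand is not given in the sources used here, and 5 members overlap a gene of at least 1 TPM on the opposite strand. Among them Slc25a35, at 2.09 ± 0.417 TPM, shares 1882 bases with Rangrf, at 29.5 TPM, and its level is uncertain.

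The libraries differed 2-fold in 2 carriers, Slc25a37 and Slc25a1, both lower in replicate 2. Expected counts were compared gene by gene by an exact two-sided binomial test with Benjamini-Hochberg adjustment over 13745 genes, and the 41 members with a summed count of at least 50 were tested. The other 8 had at most 21 counts in sum. The test compares the reads of 2 libraries, allows for counting noise only and is not a test of a condition. Called at an adjusted p under 0.05 and at least 2-fold, 0 members were higher in replicate 2, against 0.546% of all genes tested, and 2 were lower, against 0.982%. At any fold, 9 of 41 members (22%) were higher, against 10% of all genes, and 11 of 41 (26.8%) were lower, against 11.8%. The median log2 ratio of replicate 2 over replicate 1 was -0.04 for the members and 0.00 for all genes tested, and 87.8% of members and 94.8% of all genes lay within 1.5-fold. Scaling to the spike-in RNAs in place of the bulk of genes moved the median of all genes to 0.24 and the split of members at any fold to 21 higher and 3 lower, and the ratios here are relative to the bulk of genes. With edgeR's exact test and the common dispersion of both libraries, 2 members were called at any fold, again Slc25a37 and Slc25a1, and 4 had an unadjusted p under 0.05.

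**Figure D4:**
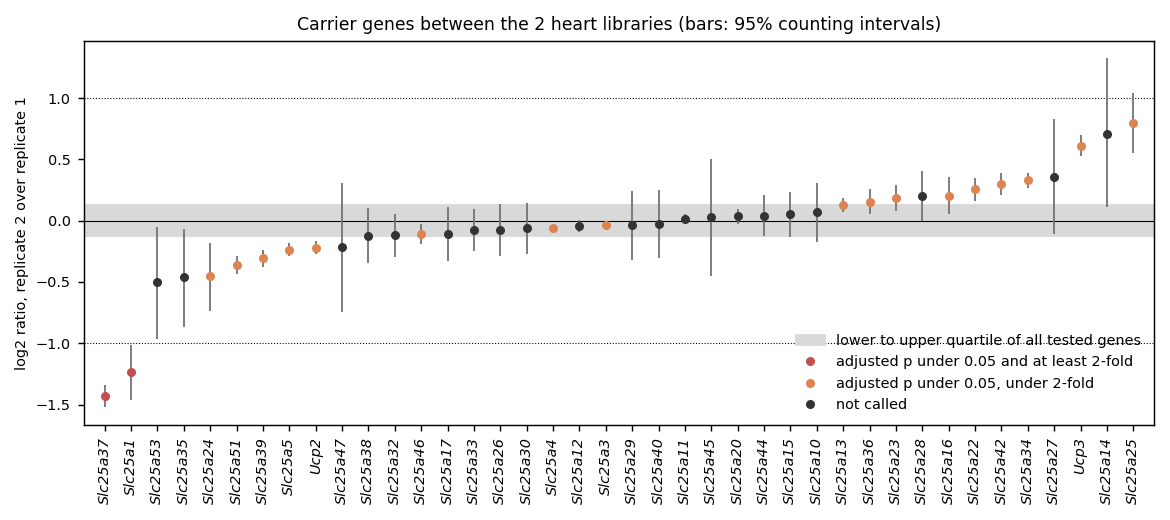
Log2 ratio of replicate 2 over replicate 1 for 40 of the 41 carrier genes tested, with 95% counting intervals; the grey band runs from the lower to the upper quartile of all 13745 genes tested, and dotted lines mark 2-fold. Slc25a37 (-1.43) and Slc25a1 (-1.24) are the 2 members past 2-fold and called.

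Slc25a37 (ENSMUSG00000034248.7, chromosome 14, 69241848 to 69285112) had 10.7 TPM in replicate 2 and 30.1 TPM in replicate 1. Its log2 ratio was -1.43 (95% counting interval -1.52 to -1.34, adjusted p 9.14e-238 by the exact binomial test and 7.11e-07 by edgeR's exact test). Slc25a28, the other mitoferrin, had 10.07 TPM in replicate 2 and 9.46 TPM in replicate 1, and its log2 ratio of 0.20 did not pass the test (adjusted p = 0.157, exact binomial test; 95% counting interval -0.0034 to 0.41). All 7 erythroid markers were lower in replicate 2 at 2-fold, with a sum of 11883 TPM in replicate 2 and 36364 TPM in replicate 1 and log2 ratios of -1.52 to -2.70. Of 10 genes of haem synthesis, 1 was lower at 2-fold, Alas2, the first enzyme of the pathway in red cells, at a log2 ratio of -1.52. At any fold 5 were lower and 0 higher. Alas2 is also 1 of the 7 erythroid markers, so the lists share it. Alas1, the form of that enzyme in other tissues, had a log2 ratio of -0.84 and Fech, which inserts the iron, -0.44. The part of red cell RNA in the difference of Slc25a37 was not tested.

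Slc25a1, the citrate carrier, which supplies the cytosol with citrate for fatty acid synthesis (ENSMUSG00000003528.15, chromosome 16, 17925223 to 17928219), had 5.01 TPM in replicate 2 and 12.75 TPM in replicate 1. Its log2 ratio was -1.24 (95% counting interval -1.46 to -1.02, adjusted p 3.65e-29 by the exact binomial test and 0.000307 by edgeR's exact test), and -0.99 with spike-in scaling, just under 2-fold. In the second quantification its TPM was 12.0 in replicate 2 and 16.7 in replicate 1, with Slc25a1-201, its main coding transcript, at 4.37 and 12.6 TPM. The count ratio there was -1.16 on the log2 scale. Of 5 genes of cytosolic citrate use, 3 were lower in replicate 2 at 2-fold and 0 higher. They were Acly, which splits citrate (log2 ratio -1.22), Acaca, the first enzyme of fatty acid synthesis (-1.24), and Fasn, which builds the chain (-1.75). Acacb, the form of the first enzyme at the mitochondrial surface, had 0.02 and Me1, the malic enzyme, -0.03, and neither was called. Adipocyte markers were also lower in replicate 2. Of 4 brown adipocyte markers 3 were lower at 2-fold and 4 at any fold, with a sum of 29.9 TPM in replicate 2 and 97.5 TPM in replicate 1. Of 5 white adipocyte markers 3 could be tested and 2 were lower at 2-fold, Plin1 (log2 ratio -1.79) and Adipoq (-1.33). The 5 had a sum of 32.4 TPM in replicate 2 and 56.6 TPM in replicate 1. Cfd, the highest of them, had 23.0 and 28.6 TPM in that order, a log2 ratio of -0.25 and under 2-fold. Retn and Lep were not tested, and Lep stood at 0.0800 and 0.110 TPM. The part of adipose RNA in the difference of Slc25a1 was not tested.

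**Figure D5:**
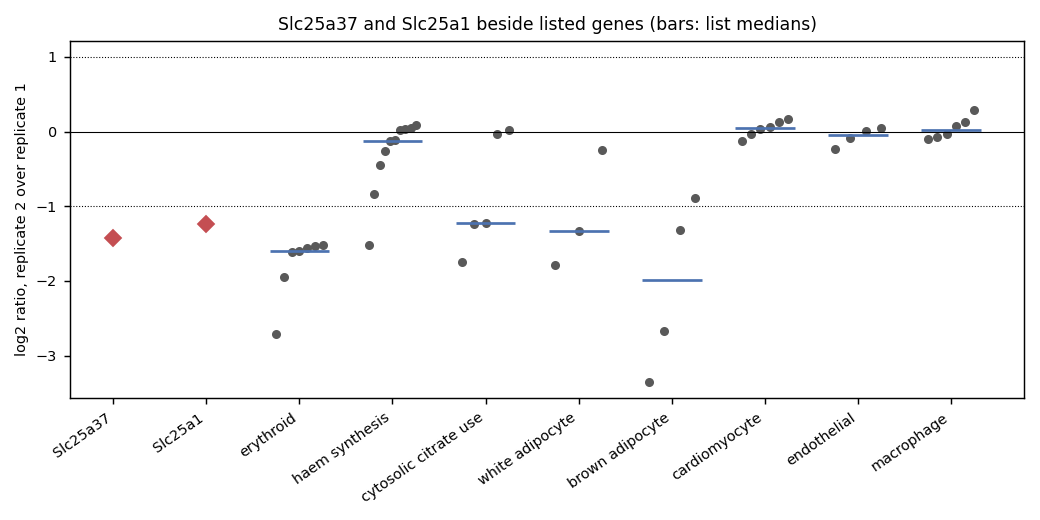
Log2 ratio of replicate 2 over replicate 1 (linear axis) for Slc25a37 and Slc25a1 (red diamonds) and for each tested gene of 8 lists (grey points), with list medians as blue bars and dotted lines at 2-fold. Slc25a37 is at -1.43 and Slc25a1 at -1.24. The medians are -1.60 (erythroid), -0.12 (haem synthesis), -1.22 (citrate use), -1.33 (white adipocyte) and -1.99 (brown adipocyte). Cardiomyocyte, endothelial and macrophage medians lie near 0.

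Among members called but under 2-fold, 2 passed 1.5-fold, both higher in replicate 2 also with spike-in scaling. Ucp3 had a log2 ratio of 0.61 (95% counting interval 0.53 to 0.70). Slc25a25, a calcium-regulated ATP-Mg/phosphate carrier, had 4.48 TPM in replicate 2 and 2.80 TPM in replicate 1, a log2 ratio of 0.80 (0.56 to 1.04), and 1.04 with spike-in scaling, past 2-fold. Slc25a34 (0.33), Slc25a42 (0.30) and Slc25a22 (0.25) were also called higher in replicate 2. Slc25a51 (-0.36), Slc25a39 (-0.31), Slc25a5 (-0.24) and Ucp2 (-0.22) were called lower, and with spike-in scaling these ratios were -0.12, -0.06, 0.01 and 0.02, of which only that of Slc25a51 was called. The main energy carriers were close between the libraries. Slc25a4 had a log2 ratio of -0.06 and Slc25a3 of -0.04, both called lower by the exact binomial test and both higher with spike-in scaling (0.18 and 0.20). Slc25a11 (0.01), Slc25a12 (-0.04) and Slc25a20 (0.04) were not called.

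The markers of the heart itself were high in both libraries. The sum of 6 cardiomyocyte markers was 22984 TPM in replicate 2 and 23004 TPM in replicate 1, that of 4 endothelial markers 135 and 151 TPM and that of 6 macrophage markers 94.2 and 94.9 TPM. None of the listed markers of skeletal muscle, hepatocytes, male germ cells or neurons reached 1 TPM in both libraries.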

How the data were processed

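Total RNA-seq of heart from 2 female B6CASTF1/J mice was used as deposited. Per the deposited description files, the build was mm10 and the annotation M21. For the aligner and the counting program, the sources used here give neither names nor versions. One set of tables, the first quantification, holds the authors' expected counts (estimated counts per gene and transcript, shared reads divided), their TPM values (divided by effective length and brought to one sum per library) and their FPKM values (scaled to effective length and library total), per the file headers. The second holds the authors' estimated counts and TPM per transcript, which were summed here per gene. Another 26248 rows whose names are bare numbers and 97 spike-in rows were left out of the comparisons. Both quantifications used a C57BL/6J reference, and the effect of CAST mismatches was not measured. Both libraries carry the same donor identifier in the labels but are called biological replicates with separate biosamples, and they were treated as 2 animals. The labels do not show how far their spread is technical.

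Levels are means ± SD over n = 2, and a gene was detected at 1 TPM or more in both libraries. Expected counts were rounded and compared by the exact binomial test of scipy 1.17.1 (Python 3.11.15) with TMM effective library sizes from edgeR 4.0.16 (R 4.3.3). The Benjamini-Hochberg adjustment ran over genes whose counts summed to 50 or more, and 0.5 was added to each count for ratios. The edgeR quasi-likelihood test needs residual degrees of freedom that 1 library against 1 does not have. For edgeR's exact test 1 dispersion for all genes was estimated from the same 2 libraries taken as 1 group. Its p-values therefore do not measure how a single gene varies between animals. Alternatives were DESeq2 1.42.0 size factors, spike-in scaling, other filters and folds, the second quantification, edgeR's exact test with common dispersion, and leaving out each replicate. Intervals are exact 95% intervals and, like the floor of 3 counts, cover counting error only. All members may be named, except 1 that is counted but not reported here by its own values. Given in full were those of at least 100 TPM, those called at 2-fold and subfamily leaders, and from each list the highest, the lowest and called genes. The members, subfamilies, gene lists and motifs were chosen with earlier results of these data known. Genes named outside this rule were chosen after their values were seen, as were the TATAA search and the promoters shown.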

Additional observations from a re-analysis of the deposited data

How the results depend on the processing

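No paired analysis was possible because the libraries form 1 group. Of the results without a test, the number of detected carriers (40) ranged from 35 to 41 over the quantifications, thresholds and single libraries tried, and the 12 subfamily leaders remained 12. The median level was 8.26 TPM in the second quantification and 5.55 in FPKM, and 6.41 to 7.25 TPM with 1 library left out. The carrier share of nuclear protein-coding TPM was 0.960% in the second quantification and 1.02% to 1.05% with 1 library left out. The share of Slc25a4 in the carrier sum was 46.5% in the second quantification and 49.96% in expected counts, and 47.0% to 47.1% with 1 library left out. The count of carriers with the same leading transcript was 16 among those of at least 10 TPM, where fewer genes enter, and 35 to 37 with 1 library left out. The upstream exon of Slc25a3 held 80.5% in the second quantification and 91.9% to 92.7% with 1 library left out, settings chosen after seeing the data. Of the 47 members with reads, 44 had a higher TPM in the second quantification and 32 moved by more than 1 SD. The median ratio of the second to the first TPM was 1.16 for members and for nuclear protein-coding genes. Carriers called at 2-fold numbered 4 at a threshold of 1.5-fold (2 higher and 2 lower in replicate 2) and 2 under each other setting, with 1 higher and 1 lower under spike-in scaling. Calls at any fold numbered 18 to 24, except for 2 by edgeR's exact test. The causes of these changes were not tested. Leaving out a library leaves no comparison between libraries. With 2 animals the SD itself is poorly known, and members of lower level rest on fewer counts and have wider counting intervals.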

Other observations

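Other routes of small molecules and of carrier proteins into mitochondria were set beside the members. Among 12 further listed genes of mitochondrial membranes, Vdac1, the main pore of the outer membrane, was highest at 397 ± 7.04 TPM (mean ± SD, n = 2). The list includes Mtch1 and Mtch2, at 76.4 ± 5.35 and 72.5 ± 3.91 TPM, whose names put them outside the rule for members. That these 2 move metabolites is not shown by these data. The pyruvate carrier subunits Mpc1 and Mpc2 had 298.8 ± 6.26 and 231 ± 31.1 TPM. In mean both lay above every SLC25 member except Slc25a4 and Slc25a3. Mpc2 (209 TPM in replicate 2 and 253 TPM in replicate 1) overlapped Slc25a11 (205 and 213), so that order is not set. These ranks are of the first quantification, and Slc25a11 had 316 and 302 TPM in the second. The sideroflexins, a separate family that includes the serine carrier Sfxn1, lay between 1.22 TPM (Sfxn2) and 4.91 TPM (Sfxn3). None of the 12 was called at 2-fold between the libraries, and 3 were lower in replicate 2 at any fold, Mpc2, Mtch1 and Sfxn5.

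The 9 listed genes of the TIM22 route, which inserts carrier proteins into the inner membrane, were all detected. The small chaperone Timm8b was highest at 101.8 ± 5.99 TPM and Agk, a subunit of the insertion complex, lowest at 6.72 ± 0.389 TPM. Timm22, its channel, had 15.3 TPM in replicate 2 and 17.85 TPM in replicate 1, and it was the 1 gene of the 9 called at any fold (log2 ratio -0.32, 95% counting interval -0.49 to -0.15).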
